A study of Mus musculus with 20 samples.

Results

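The genes described here are 10 members of bone morphogenetic protein (BMP) and growth differentiation factor (GDF) signalling, taken by name from a table of 54532 mouse genes. They were 4 ligands (*Bmp2*, *Bmp4*, *Bmp6* and *Gdf5*), 2 receptors (*Bmpr1a* and *Bmpr2*), 2 secreted antagonists (*Nog* and *Grem1*) and 2 target genes (*Id1* and *Id3*). Of these, 9 passed the filter on low counts that left 15984 genes for testing, and *Gdf5* did not. RNA was sequenced from the condylar head of the temporomandibular joint (TMJ), with some of the bone under its cartilage, in 8 control and 12 knockout mice of both sexes. All 20 animals carried Acan-CreERT2 and floxed *Loxl2* alleles (fl/fl). Injections began at 6 months of age and went on for 4 months, with vehicle in the controls and tamoxifen in the knockouts. The Cre recombinase is driven by the aggrecan gene, so the deletion was aimed at cartilage cells, while the sampled tissue also held other cells in which this promoter is not active. Since tamoxifen was given to 1 group only, an effect of the drug and an effect of the deletion cannot be told apart.

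BMP and GDF ligands are secreted dimers that bring together type I and type II serine/threonine kinase receptors. The type I receptor phosphorylates SMAD1, SMAD5 and SMAD9, which enter the nucleus with SMAD4 and switch on targets such as the *Id* genes, whose products block helix-loop-helix transcription factors. Extracellular antagonists such as noggin and gremlin bind the ligands and keep them from the receptors, and the pathway is known for its part in forming joints, cartilage and bone.

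Library totals lay between 11153820 and 27045668 counts, and 3673 of all genes tested passed an adjusted p of 0.05 (edgeR quasi-likelihood test, Benjamini-Hochberg adjustment), or 23.0%, with 12.0% higher and 11% lower in the knockout libraries. *Loxl2*, which encodes lysyl oxidase-like 2, showed no fall in libraries labelled knockout. In CPM, which is counts scaled to an equal library size, it stood at 16, 70.2 and 103 for the lowest, median and highest control and at 28.8, 110 and 126 for the knockouts. The log2 difference was 0.77 in mean log2 CPM (exact two-sided permutation p = 0.0271) and 0.64 (SE 0.28) in edgeR, with an adjusted p of 0.101. The paper reported reduced LOXL2 protein by immunostaining of knockout joints, a measure unlike RNA of the whole condylar head. Counts of a whole gene need not show a deletion of part of it. In 11 of 12 knockouts *Loxl2* was above the control median, and the reason for this was not tested. The groups are therefore named below by their labels, and each direction refers to the libraries labelled knockout against control. Chondrocyte markers were detected but varied widely between libraries. *Acan*, the main cartilage proteoglycan, ran from 2.22 to 276 CPM in controls and from 5.17 to 244 CPM in knockouts. *Matn3* and *Snorc* were at 0 in at least 1 control and *Cnmd* in at least 1 knockout. The 10 skeletal muscle markers summed to between 43682 and 155276 CPM in controls and between 31064 and 81782 CPM in knockouts, so muscle RNA was abundant throughout.

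Among the 9 members tested, 3 passed the threshold, which is 33.3% against the 23.0% of all genes. *Id3* and *Nog* were higher and *Bmpr1a* was lower. The share rests on 9 genes and was not tested against that of all genes. Of the 3 calls, that of *Bmpr1a* held in only 5 of 20 fits made with 1 library omitted. The other 6 did not pass, and the median log2 fold change over the 9 was 0.28 against -0.02 over all genes tested. DESeq2's Wald test called the same 3 members, where it called 22.3% of all genes with an adjusted p.

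**Figure D1:**
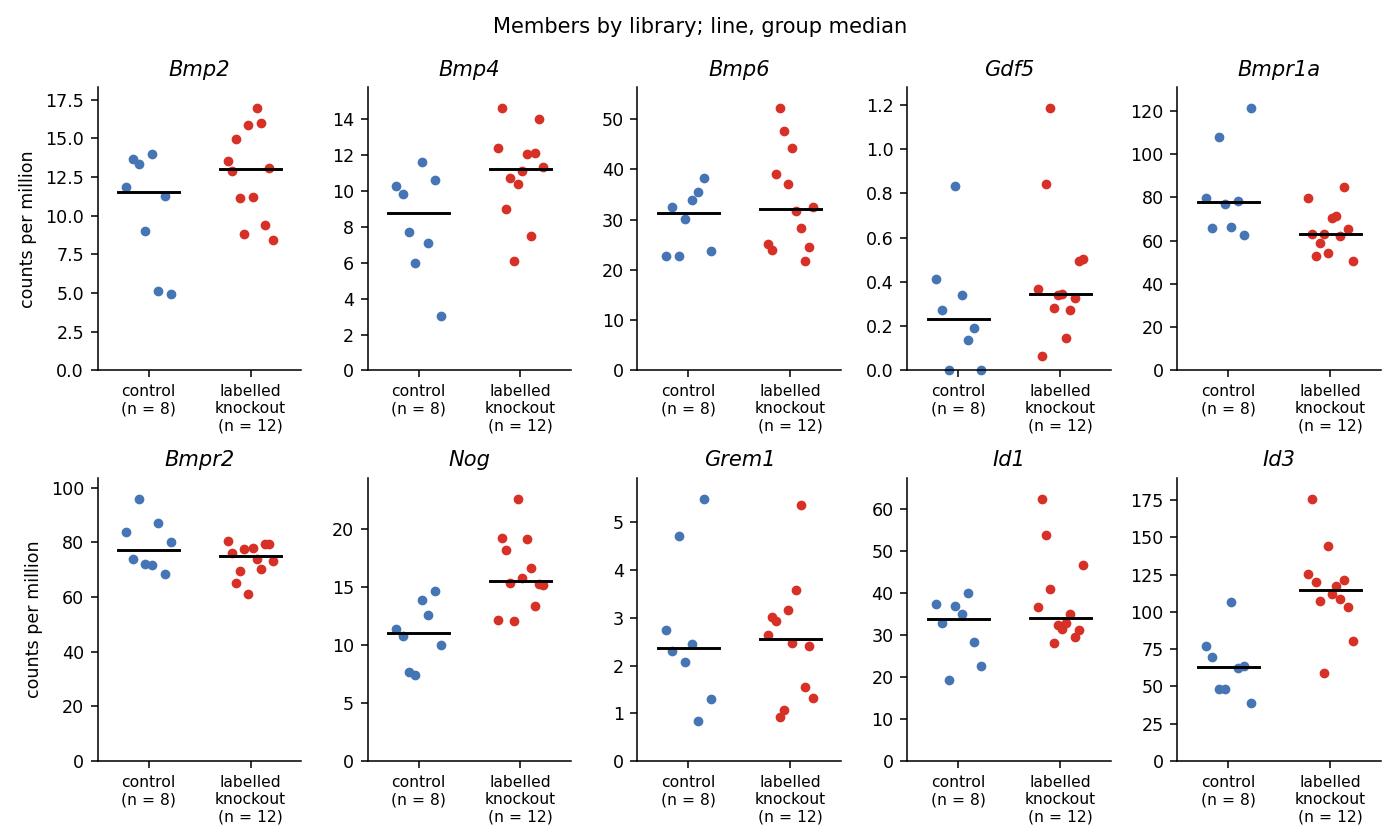
Level of each of the 10 members in CPM (vertical axes, from 0) in the 8 control libraries (blue) and the 12 libraries labelled knockout (red), 1 point a library, with a line at the group median. *Id3* and *Nog* sat higher in the knockouts, with 9 of 12 above every control for each, and *Bmpr1a* sat lower in 10 of 12, while the 2 groups overlapped in every panel.

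Sequences from the RefSeq promoter table (GRCm38.p6) are shown for a called target and the called receptor, because both motifs searched are known binding sites of SMAD proteins. The first was the SMAD box CAGAC and the second the GC-rich element GGCGCC, each sought on both strands in the 250 bases before the RefSeq start, and the 2 motifs do not overlap each other in the stretches shown. The table held 6 of the 10 members: *Bmp4*, *Bmp6*, *Bmpr1a*, *Bmpr2*, *Grem1* and *Id3*. Capitals mark the match, and each stretch is 30 bases long and written 5′ to 3′ on the strand of its gene.
Id3, chr4:136143643-136143672, plus strand: tgtcctcggcgtCAGACcagcctaaggaag
Id3, chr4:136143742-136143771, plus strand: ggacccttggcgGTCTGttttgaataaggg
Bmpr1a, chr14:34502727-34502756, minus strand: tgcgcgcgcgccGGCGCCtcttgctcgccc
The *Id3* matches began 167 and 68 bases before the RefSeq start, the nearer one as the reverse complement GTCTG, and the *Bmpr1a* match began 198 bases before it. GENCODE begins *Id3* 325 bases and *Bmpr1a* 795 bases farther upstream than RefSeq, so these stretches lie before the RefSeq start and inside the GENCODE gene bounds given below. CAGAC was found in 3 of the 6 members in the table (*Grem1*, *Id3* and *Bmp6*) and in 42.2% of 32851 promoters, so a match is common. GGCGCC was found in 3 (*Bmpr2*, *Grem1* and *Bmpr1a*) and in 9.59% of promoters. A match describes letters only, and members with either motif were found among those that passed the test and those that did not.

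Ligand levels did not pass the test in any of the 3 ligands tested. *Bmp2*, a ligand that induces bone and cartilage, was at 4.97, 11.6 and 14.0 CPM for the lowest, median and highest control and at 8.43, 13.0 and 16.9 CPM for the knockouts. Only 7 of 12 knockouts were above the control median, and the low end was held by controls 8 and 6. Its log2 fold change was 0.28 (SE 0.20, 95% interval -0.12 to 0.69, adjusted p = 0.302).

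*Bmp4*, a close relative of *Bmp2* with the same receptors, was at 3.06, 8.77 and 11.6 CPM in controls and at 6.12, 11.2 and 14.6 CPM in knockouts. The log2 fold change was 0.40 (SE 0.20, 95% interval -0.01 to 0.81, adjusted p = 0.145). In 10 of 12 knockouts it was above the control median and in 5 above every control, and the lowest value of each group came from a library poor in chondrocyte markers (control 8 and knockout 5).

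*Bmp6*, a ligand known in cartilage and in the control of iron, was at 22.7, 31.3 and 38.3 CPM in controls and at 21.8, 32.1 and 52.1 CPM in knockouts. Its log2 fold change was 0.18 (SE 0.17, 95% interval -0.16 to 0.53, adjusted p = 0.438). The groups overlapped over most of their range, and 4 knockouts exceeded every control. Exons of *Bmp6* overlap those of *Txndc5*, a gene on the opposite strand whose log2 fold change was 0.74 (adjusted p = 0.00154). Whether counting used strand is not given in the sources used here, so reads from the overlap cannot be assigned with certainty to either gene.

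*Gdf5*, the ligand best known for marking developing joints, was barely detected. It had 0 to 14 counts in controls and 2 to 26 in knockouts, with 0 in 2 control libraries, where a count of 0 allows up to 3. The medians were 0.234 and 0.344 CPM. DESeq2 gave a log2 fold change of 0.63 (adjusted p = 0.478), so a difference was not detectable at this depth.

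Of the receptors, *Bmpr1a* was lower in the knockout libraries. This type I receptor (GRCm38, chr14:34410734-34503341, minus strand) binds BMP2 and BMP4. It was at 62.7, 77.6 and 121 CPM in controls and at 50.8, 63.0 and 84.6 CPM in knockouts. The log2 fold change was -0.35 (SE 0.12, 95% interval -0.61 to -0.09, adjusted p = 0.0472). In 10 of 12 knockouts it lay below the control median and in 5 below every control, while the highest controls, 8 and 3, reached 121 and 108 CPM. The call was not firm: it held in 5 of 20 fits made with 1 library omitted, where the adjusted p ran from 0.0299 to 0.160, the highest value coming without control 8. An antisense gene on the opposite strand, *Gm17110*, had 95 counts over all libraries.

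*Bmpr2*, the type II receptor that pairs with it, was at 68.4, 77.0 and 95.9 CPM in controls and at 61.2, 74.9 and 80.5 CPM in knockouts. Its log2 fold change was -0.10 (SE 0.07, 95% interval -0.25 to 0.05, adjusted p = 0.316). Of the 12 knockouts, 7 were below the control median and 2 below every control. The log2 ratio of *Bmpr1a* to *Bmpr2* within a library was 0.03 ± 0.26 (SD, n = 8) in controls and -0.20 ± 0.16 (SD, n = 12) in knockouts, a difference of -0.23 (exact two-sided permutation p = 0.0159, adjusted p = 0.0239 over 3 ratios). Control 8 carried much of it: without that library the difference was -0.15 (exact permutation p = 0.0557), so unequal change of the 2 receptors rested on it. Such a ratio depends on how libraries are scaled only through the prior count added before the log, which weighs most where counts are few. The 3 ratios, 1 for each role with 2 tested members, were chosen after the values had been seen.

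Of the antagonists, *Nog* was higher in the knockout libraries. It encodes noggin, which binds BMP2 and BMP4 with high affinity (GRCm38, chr11:89300638-89302332, minus strand). It was at 7.38, 11.1 and 14.6 CPM in controls and at 12.1, 15.5 and 22.6 CPM in knockouts. All 12 knockouts were above the control median and 9 were above the highest control, although the lowest knockouts still fell within the control range. The log2 fold change was 0.56 (SE 0.14, 95% interval 0.26 to 0.85, adjusted p = 0.00868), a 1.47-fold difference, and it was called in all 20 fits that left out 1 library, with a highest adjusted p of 0.0196.

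*Grem1* encodes gremlin 1, an antagonist of BMP2, BMP4 and BMP7. It was scarce, at 0.828, 2.37 and 5.49 CPM in controls and at 0.911, 2.55 and 5.36 CPM in knockouts. The ranges were nearly the same. The log2 fold change was -0.11 (SE 0.34, 95% interval -0.82 to 0.60, adjusted p = 0.846), and its sign turned when control 3 or control 7 was left out. The log2 ratio of *Nog* to *Grem1* was 2.14 ± 0.93 (SD, n = 8) in controls and 2.76 ± 0.62 (SD, n = 12) in knockouts, a difference of 0.62 that did not pass the test (exact two-sided permutation p = 0.0864, adjusted p = 0.0864). A difference between the 2 antagonists was therefore not shown.

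Of the targets, *Id3* had the strongest call among the members. It encodes an inhibitor of DNA binding (GRCm38, chr4:136143497-136145755, plus strand). It was at 38.8, 63.1 and 106 CPM in controls and at 58.8, 115 and 176 CPM in knockouts. In 11 of 12 knockouts it was above the control median and in 9 above the highest control. Control 5 held the highest control value and control 8 the lowest, while knockout 2 was the highest and knockout 5 the lowest of their group. The log2 fold change was 0.83 (SE 0.18, 95% interval 0.45 to 1.21, adjusted p = 0.00403), a 1.78-fold difference, called in all 20 fits without 1 library.

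*Id1*, a related target and a common readout of BMP signalling, was at 19.2, 33.9 and 39.9 CPM in controls and at 28.1, 33.9 and 62.4 CPM in knockouts. The medians were equal to 3 digits, with 6 of 12 knockouts on each side of the control median. Its log2 fold change was 0.29 (SE 0.16, 95% interval -0.05 to 0.62, adjusted p = 0.205). The log2 ratio of *Id3* to *Id1* was 1.0 ± 0.39 (SD, n = 8) in controls and 1.57 ± 0.41 (SD, n = 12) in knockouts, a difference of 0.57 (exact two-sided permutation p = 0.00711, adjusted p = 0.0213). The ratio was above the control median in 10 of 12 knockouts, so the 2 targets differed between the groups by unequal amounts. The difference was between 0.48 and 0.65 with any 1 library left out (highest exact permutation p = 0.0186). This ratio too was chosen after the values had been seen, and it was not refitted with a marker score.

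Levels were ranked between genes on CPM per kilobase of exon. In controls the mean was 36.0 for *Id3*, 27.2 for *Id1* and 13.0 for *Bmpr1a*. Next came *Bmp6* at 7.68, *Nog* at 6.51, *Bmpr2* at 4.40, *Bmp4* at 3.68 and *Bmp2* at 2.93, with *Grem1* at 0.66 and *Gdf5* at 0.12. Library ranges of neighbours in this order overlapped except between *Bmpr1a* and *Bmp6* and between *Bmp2* and *Grem1*. In knockouts *Id3* was at 64.0, *Id1* at 33.1, *Bmpr1a* at 10.2 and *Nog* at 9.57. There *Nog* stood above *Bmp6* (8.72) in the order, though their ranges overlapped, and the ranges of *Id1* and *Bmpr1a* no longer did.

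The other 50 genes of the pathway were read from the same test. Of these, 46 were tested and 11 were called, 7 higher and 4 lower, which is 23.9% against 23.0% of all genes. That share is near the background and is no result about the pathway as a list. By role, 0.0% of 6 ligands, 33.3% of 9 receptors and 37.5% of 8 SMAD and Smurf genes were called. For 15 antagonists and 8 targets the shares were 20.0% and 25.0%. Each share rests on few genes, and none was tested against the 23.0% of all genes. The median log2 fold change over the 46 was 0.21. *Bmp8b*, *Gdf2* and *Gdf7* did not pass the filter, and *Bmp10* had no count in any library.

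**Figure D2:**
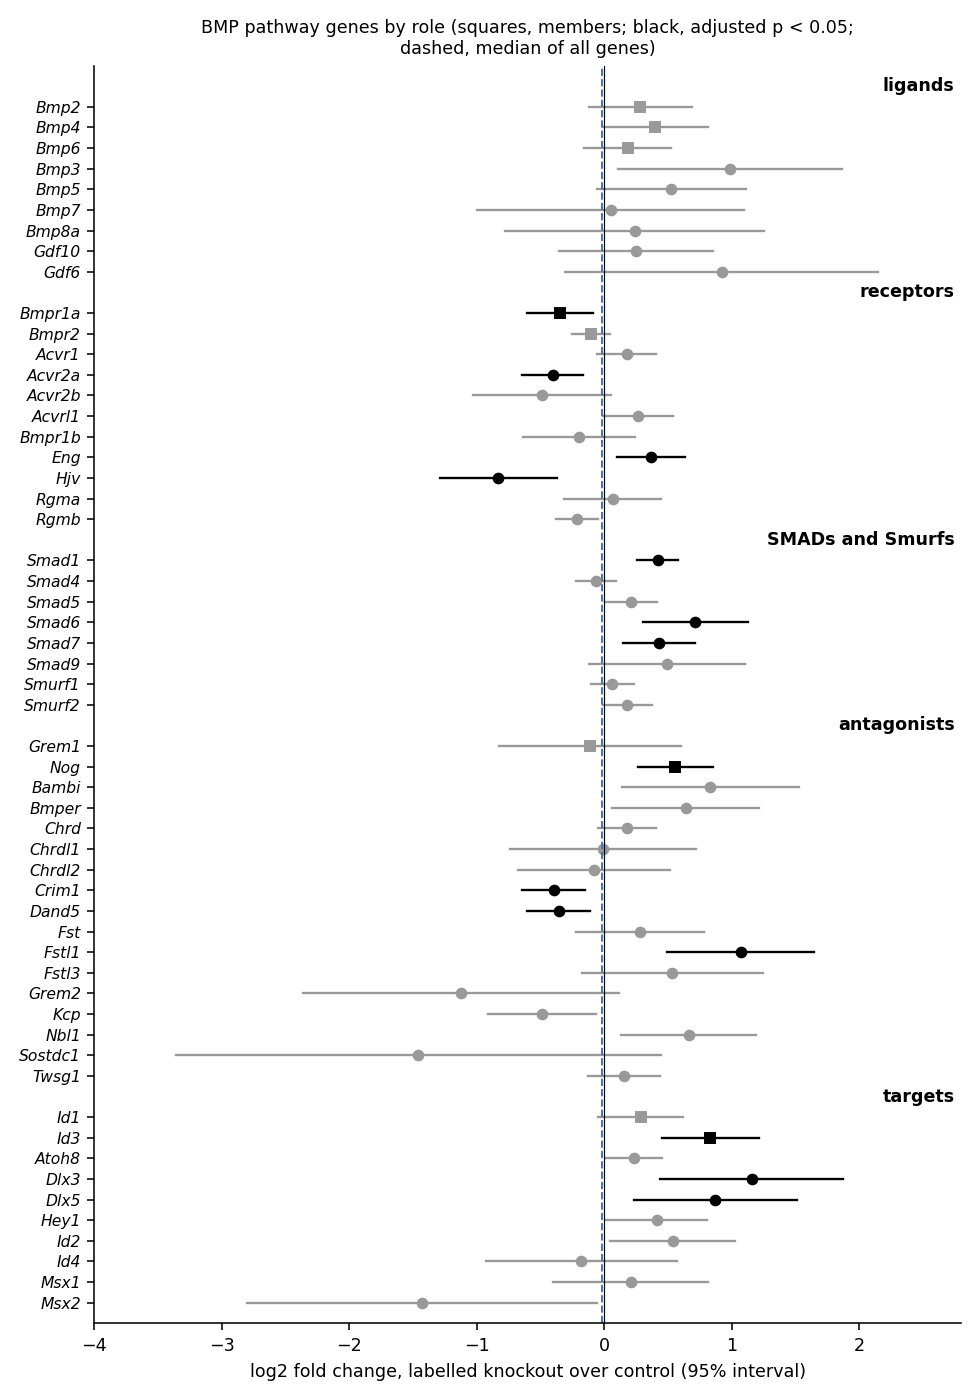
Log2 fold change (horizontal axis, labelled knockout over control) with its 95% interval for the 9 tested members (squares) and 46 other pathway genes (circles), grouped by role. Black marks an adjusted p below 0.05 and grey the rest, the dashed line is the median of all genes tested (-0.02), and none of the 9 tested ligands is black.

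None of the 6 other ligands tested passed. *Gdf10* had the highest level of them per kilobase of exon in controls (7.35 CPM per kilobase), with medians of 43.8 CPM in controls and 46.3 CPM in knockouts and a log2 fold change of 0.25 (adjusted p = 0.564). *Bmp3*, which is known to oppose other BMPs, had medians of 17.9 and 35.1 CPM and a log2 fold change of 0.99 (SE 0.42, adjusted p = 0.0949). All 9 tested ligands had a positive estimate, and none was called. The lowest was *Bmp7* at 0.05 (SE 0.50), and the sign was not kept in every fit. With the mean level of osteoblast and osteocyte markers as a covariate, *Bmp2*, *Bmp3*, *Bmp7* and *Bmp8a* had negative estimates. In that fit *Bmp4*, *Bmp5* and *Bmp6* stayed positive. The mean level of osteoclast markers as a covariate turned more of these signs. *Bmp2* (-0.29), *Bmp3* (-0.81), *Bmp4* (-0.11), *Bmp5* (-0.13), *Bmp7* (-1.63) and *Bmp8a* (-0.67) were then negative. *Bmp6* stayed positive (0.41), and no gene was called in that fit.

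Among 9 other receptors and co-receptors, *Acvr2a* and *Hjv* were lower and *Eng* was higher. *Acvr2a*, a type II receptor, had medians of 19.0 CPM in controls and 14.2 CPM in knockouts (log2 fold change -0.40, adjusted p = 0.0167), with all 12 knockouts below the control median. *Hjv* encodes hemojuvelin, a BMP co-receptor of muscle and liver, and was at 278, 444 and 1112 CPM in controls and at 173, 296 and 487 CPM in knockouts (log2 fold change -0.83, adjusted p = 0.0109). The muscle marker list was at a mean score of 11.9 in controls and 11.2 in knockouts, and with that score as a covariate the log2 fold change of *Hjv* was -0.31 (adjusted p = 0.0853). *Eng*, the endothelial co-receptor endoglin, had medians of 86.9 and 113 CPM (log2 fold change 0.36, adjusted p = 0.0461). With the endothelial list as a covariate, the estimate for *Eng* was 0.46 (adjusted p = 0.0108). Its call was lost with the chondrocyte score (0.38, adjusted p = 0.0579), the muscle score (0.39, adjusted p = 0.0982), the osteoblast and osteocyte score (0.37, adjusted p = 0.160) and the osteoclast score (0.23, adjusted p = 0.833), and without the 3 libraries lowest in chondrocyte markers (0.33, adjusted p = 0.161). *Rgmb*, a co-receptor with the highest level per kilobase among those not called (6.85 CPM per kilobase in controls), had a log2 fold change of -0.22 (adjusted p = 0.0524). Exons of *Acvr2a* overlap *Orc4* and those of *Eng* overlap *Fpgs*, each on the opposite strand.

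Among 8 SMAD and Smurf genes, *Smad1*, *Smad6* and *Smad7* were called higher and none was called lower (37.5% called, against 23.0% of all genes). *Smad1*, which carries the signal from the type I receptors, was at 13.3, 16 and 17.3 CPM in controls and at 16.9, 21.5 and 25.4 CPM in knockouts. In 11 of 12 knockouts it was above every control (log2 fold change 0.42, SE 0.08, adjusted p = 0.00174). *Smad6* and *Smad7*, the inhibitory SMADs, had log2 fold changes of 0.71 (adjusted p = 0.0140) and 0.43 (adjusted p = 0.0287). *Smad4*, the shared partner and the gene of this role with the highest level per kilobase in controls (12.3 CPM per kilobase), was at -0.06 (adjusted p = 0.564). The log2 fold changes of *Smad5* and *Smad9* were 0.21 (adjusted p = 0.127) and 0.49 (adjusted p = 0.234).

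Of 15 other antagonists, *Fstl1* was higher and *Dand5* and *Crim1* were lower. *Fstl1*, a secreted follistatin-like protein, had medians of 95.1 CPM in controls and 145 CPM in knockouts and reached 428 CPM in 1 knockout (log2 fold change 1.07, adjusted p = 0.00998). *Dand5*, of the DAN family, had a log2 fold change of -0.36 (adjusted p = 0.0355), and *Crim1*, a membrane protein that binds BMPs, had one of -0.40 (adjusted p = 0.0206). Every knockout was below the control median for both. Exons of *Crim1* overlap those of *Fez2* on the opposite strand. *Nbl1* had the highest level per kilobase in controls among the antagonists that edgeR did not call (63.9 CPM per kilobase, medians 122 and 180 CPM, log2 fold change 0.66, adjusted p = 0.0646). DESeq2, which called 22.3% of all genes with an adjusted p, called 13 of the other pathway genes. These were the 11 called by edgeR and also *Nbl1* (adjusted p = 0.0386) and *Bambi* (adjusted p = 0.0417).

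Of 8 other targets, the homeobox genes *Dlx3* and *Dlx5*, known in osteoblast differentiation, were higher. *Dlx3* had medians of 7.89 and 18.7 CPM (log2 fold change 1.16, adjusted p = 0.0206) and *Dlx5* of 23.2 and 37.6 CPM (log2 fold change 0.87, adjusted p = 0.0454). The osteoblast and osteocyte markers were higher in the same libraries, and with their score as a covariate *Dlx5* was at 0.14 (adjusted p = 0.699) and *Dlx3* at 0.99 (adjusted p = 0.156). *Id2*, a further *Id* gene and the target with the highest level per kilobase among those that did not pass (10.4 CPM per kilobase in controls), had a log2 fold change of 0.54 (adjusted p = 0.103). Omission of single libraries ended the call of *Dlx5* in 14 of 20 fits, of *Eng* in 11 and of *Dand5* in 10, whereas *Smad1*, *Smad6*, *Fstl1*, *Hjv* and *Dlx3* were called in all 20. With the muscle score, or the osteoblast and osteocyte score, as a covariate, *Fstl1* and *Smad1* were the only other pathway genes still called. Those fits left 7.07% and 4.04% of all genes called. With the osteoclast score no other pathway gene was called, and neither was any gene.

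Markers of other cell types differed between the groups in the same libraries. In bulk tissue, fewer cells of a type and less RNA per cell cannot be told apart. The mean log2 CPM of 10 osteoclast markers was 3.04 in controls (range 1.94 to 4.73) and 5.33 in knockouts (range 3.61 to 6.99), with all 10 markers called higher (exact two-sided permutation p = 0.000151, adjusted p = 0.000905 over 12 lists). Their summed level ran from 158 to 1097 CPM in controls and from 544 to 5828 CPM in knockouts. The osteoblast and osteocyte list was at 5.05 and 6.43 (exact permutation p = 0.0147, adjusted p = 0.0442), with 5 of 10 markers called higher. The macrophage list (2.87 and 4.08) and the mast cell list (-0.04 and 2.09) were also higher, at adjusted p of 0.000905 and 0.00629 in the same exact test. The chondrocyte list was at 4.93 and 5.84 (exact permutation p = 0.222, adjusted p = 0.296). The skeletal muscle list, lower in knockouts, had an adjusted p of 0.0783 in the exact test, and the endothelial list (5.59 and 5.47) one of 0.406. No marker of any list was at 0 in every library.

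The called members were refitted with each of 5 list scores as a covariate. With the osteoclast score, the log2 fold change of *Id3* was 0.01 (SE 0.15), that of *Nog* 0.18 (SE 0.19) and that of *Bmpr1a* -0.24 (SE 0.21). No member was called by edgeR in that fit, and neither was any other gene (0.0%, with 1255 genes at an unadjusted p below 0.05), and the score itself differed between the groups as given above. With the osteoblast and osteocyte score, which left 4.04% of genes called, *Id3* was at 0.47 (adjusted p = 0.0835) and *Nog* at 0.43 (adjusted p = 0.130). With the muscle score, which left 7.07%, *Id3* was at 0.50 and was called (adjusted p = 0.0276), and *Nog* was at 0.48 (adjusted p = 0.0622). *Id3* and *Nog* were called with the chondrocyte score (16.9% of genes called) and with the endothelial score (19.9%), and *Bmpr1a* only with the latter of these 2.

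**Figure D3:**
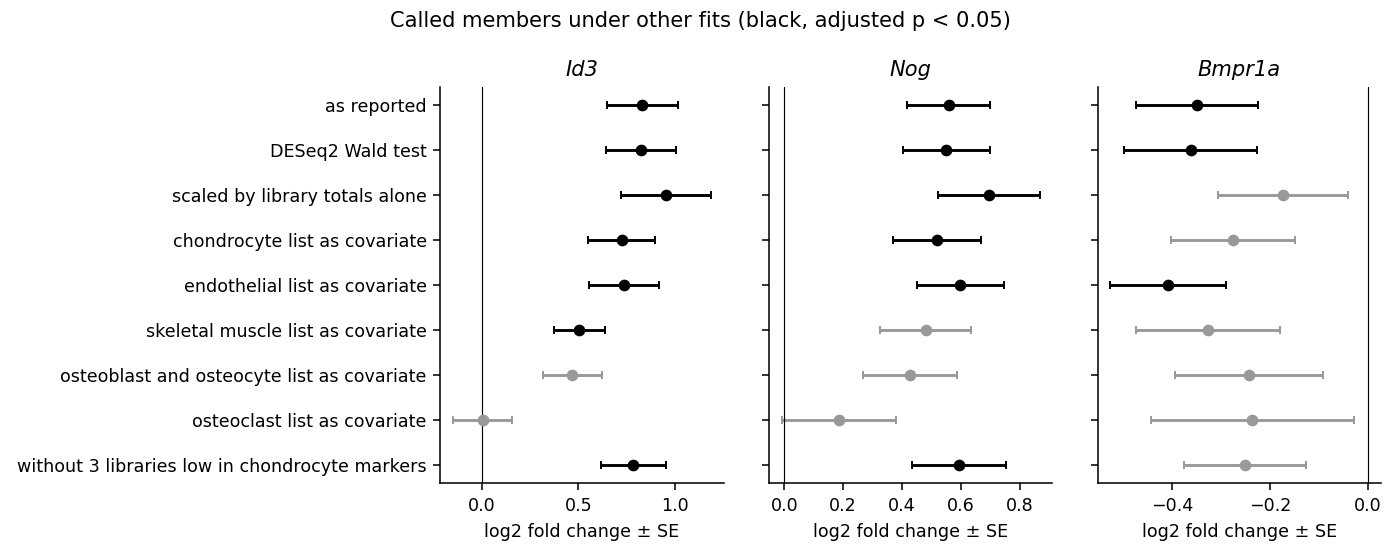
Log2 fold change (horizontal axes, labelled knockout over control, ± SE) of *Id3*, *Nog* and *Bmpr1a* in the reported fit and in 8 other fits, black where the adjusted p was below 0.05. *Id3* fell from 0.83 to 0.01 with the osteoclast list as a covariate, a fit in which no gene at all was called. It fell by less with the muscle list and with the osteoblast and osteocyte list. With the chondrocyte list the estimates, 0.72 for *Id3* and 0.52 for *Nog*, stayed near those reported.

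*Id3* was set against the score of each of the 12 marker lists inside each group, and *Nog* and *Bmpr1a* against the osteoclast score, which made 28 relations over which p was adjusted. Pearson's r between *Id3* in log2 CPM and the osteoclast score was 0.88 over the 8 controls (exact permutation p = 0.00593, adjusted p = 0.0491), with Spearman's rho 0.81 (exact permutation p = 0.0218, adjusted p = 0.0872). Over the 12 knockouts r was 0.87 (permutation p = 7.0e-05, adjusted p = 0.00196) and rho was 0.92 (permutation p = 7.0e-05, adjusted p = 0.00196). Without the 2 libraries farthest from the median score, r was 0.75 in controls and 0.74 in knockouts. The relation thus passed by both measures in knockouts and by r alone in controls.

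The osteoclast list was not the only one that *Id3* followed. With the muscle score r was -0.83 in controls (exact permutation p = 0.0126, adjusted p = 0.0517) and -0.77 in knockouts (permutation p = 0.00314, adjusted p = 0.0440), with rho of -0.93 (exact permutation p = 0.00223, adjusted p = 0.0313) and -0.73 (permutation p = 0.00823, adjusted p = 0.0768). Without the 2 farthest libraries, r with the muscle score was -0.92 and -0.77.

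With the osteoblast and osteocyte score r was 0.74 in controls (exact permutation p = 0.0369, adjusted p = 0.103) and 0.71 in knockouts (permutation p = 0.0129, adjusted p = 0.0517), with rho of 0.81 (exact permutation p = 0.0218, adjusted p = 0.0872) and 0.66 (permutation p = 0.0218, adjusted p = 0.0872). Without the 2 farthest libraries, r was 0.83 and 0.37. With the macrophage score r was 0.86 in controls (exact permutation p = 0.00945, adjusted p = 0.0517), where rho was 0.62 (exact permutation p = 0.115, adjusted p = 0.230) and r fell to 0.40 without the 2 farthest libraries. The macrophage score had r of 0.42 with *Id3* in knockouts (permutation p = 0.176, adjusted p = 0.258) and rho of 0.52 (permutation p = 0.0883, adjusted p = 0.206). With the endothelial score r was -0.75 in knockouts (permutation p = 0.00702, adjusted p = 0.0491), rho was -0.67 (permutation p = 0.0199, adjusted p = 0.0872) and r was -0.37 without the 2 farthest libraries. The tenocyte and synovial fibroblast score had r of 0.80 in controls (exact permutation p = 0.0183, adjusted p = 0.0632) and -0.35 in knockouts (permutation p = 0.262, adjusted p = 0.328). For the Schwann cell score r was 0.77 in controls (exact permutation p = 0.0203, adjusted p = 0.0632) and 0.39 in knockouts (permutation p = 0.217, adjusted p = 0.289). Without the 2 farthest libraries, these r in controls were 0.27 and 0.35. In all, r passed for 1 of 12 lists in controls and for 3 in knockouts, and rho for 1 in each. The scores share libraries and depth, and differences between these relations were not tested.

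*Nog* had r of 0.59 with the osteoclast score in controls (exact permutation p = 0.124, adjusted p = 0.230) and 0.45 in knockouts (permutation p = 0.138, adjusted p = 0.230), with rho of 0.67 (exact permutation p = 0.0831, adjusted p = 0.206) and 0.55 (permutation p = 0.0681, adjusted p = 0.206). These fell to 0.16 and 0.14 in r without the 2 farthest libraries. *Bmpr1a* had r of -0.57 in controls (exact permutation p = 0.148, adjusted p = 0.230) and 0.18 in knockouts (permutation p = 0.577, adjusted p = 0.621), with rho of -0.60 (exact permutation p = 0.132, adjusted p = 0.232) and 0.20 (permutation p = 0.525, adjusted p = 0.639). Without the 2 farthest libraries, r for *Bmpr1a* was -0.76 and 0.25.

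**Figure D4:**
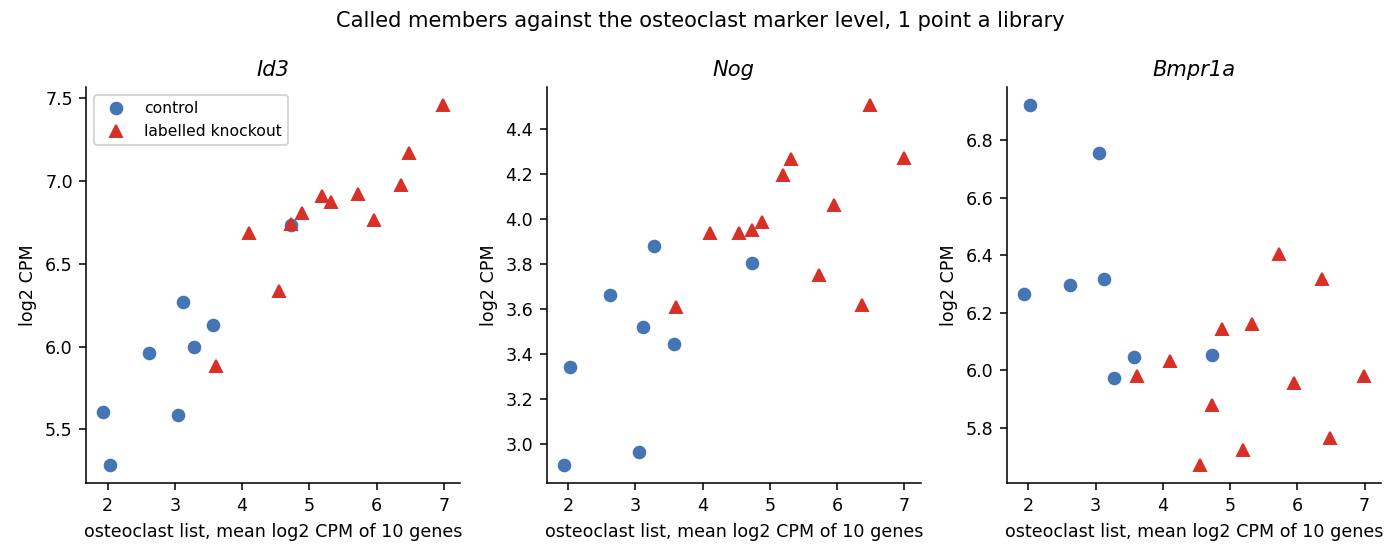
Level of *Id3*, *Nog* and *Bmpr1a* in log2 CPM (vertical axes) against the mean log2 CPM of 10 osteoclast markers (horizontal axes), 1 point for each of 8 controls (blue circles) and 12 libraries labelled knockout (red triangles). *Id3* climbed with the markers in both groups (r 0.88 and 0.87), and the 2 groups overlapped on the horizontal axis only between 3.61 and 4.73. Control 5 was the only control in that range, the next highest being control 2 at 3.57. The fit with this score as a covariate thus compared the groups over little shared range.

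Controls 6 and 8 and knockout 5 had the lowest chondrocyte scores (2.85, 1.03 and 3.25). Without these 3 libraries, an omission chosen after seeing the data, 14.1% of all genes were called. *Id3* (log2 fold change 0.78, adjusted p = 0.00649) and *Nog* (0.59, adjusted p = 0.0192) were still called, and *Bmpr1a* was not (-0.25, adjusted p = 0.184). Of the other pathway genes, 7 were then called: *Acvr2a*, *Dlx3*, *Dlx5*, *Fstl1*, *Hjv*, *Smad1* and *Smad6*.

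For each member, the genes whose levels followed it most closely were found among at least 10752 protein-coding genes, as the highest Pearson r of log2 CPM centred within each group over 20 libraries. The points share library and depth, the genes were picked for their r, and no p is given. *Id3* was followed by *Cacnb3* (0.91), *Jdp2* (0.90) and *Ctsk* (0.90), the last of which is itself on the osteoclast list. *Nog* was followed less closely, by *Ccnd3* (0.79), *Zfpm1* (0.79) and *Sh2b3* (0.77). *Bmpr1a* was followed by *Wdr26* (0.95), *Nin* (0.92) and *Sec23a* (0.89).

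*Bmpr2* was followed by *Fam135a* (0.92), *Ltn1* (0.90) and *Appl1* (0.88). *Id1* was followed by *Fkbp2* (0.79) and *Srprb* (0.70), neither of which is among those of *Id3*. Of the ligands, *Bmp2* was followed by *Cep164* (0.92), *Mmp14* (0.91) and *Sh3pxd2b* (0.91).

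*Bmp4* was followed by *Ptpra* (0.92), *Slc10a3* (0.88) and *Haus8* (0.87), and *Bmp6* by *Adam15* (0.87), *Ltbp4* (0.82) and *Adgre5* (0.81). *Grem1* was followed by *Prr5* (0.89), *Mdfi* (0.86) and *Wnt5b* (0.84). For *Gdf5*, with its few counts, high values were 0.76 for *Itga7* and 0.75 for *Krt80*. No gene named here followed more than 1 member.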

How the data were processed

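RNA from TMJ condylar heads of 8 control and 12 knockout mice was sequenced as read pairs. The deposited table holds raw read counts per gene, made by the authors with featureCounts on the mm10 genome; the aligner, annotation and strand setting are not given in the sources used here. Gene symbols and positions came from GENCODE M21 (GRCm38), which matched 54495 of 54532 identifiers. Groups came from the sample labels. Genes were filtered with filterByExpr and scaled with TMM, and groups were compared with the edgeR 4.0.16 quasi-likelihood test in R 4.3.3, two-sided, with adjusted p below 0.05 over all genes tested. DESeq2 1.42.0 was an alternative. CPM used TMM-scaled totals and log2 CPM a prior count of 2. Single values and list scores (mean log2 CPM) were compared by exact permutation over 125970 assignments. A list score used only markers that passed the filter, which left 8 of 10 for chondrocytes (without *Matn3* and *Cnmd*). The edgeR fit without covariates was tested on simulated counts with known changes, drawn separately for each gene. DESeq2, the covariate and block fits and the permutation tests were not tested in this way.

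The members and lists were chosen with earlier results of these data known. The text names all 10 members, each other pathway gene that was called, the uncalled gene with the highest level in a role, *Loxl2*, markers where a result turns on them, and the 3 protein-coding genes (mean of at least 5 CPM) nearest to each member, of which some are not reported here; other genes named beside them were chosen after their values were seen. *Hjv* is annotated under the older symbol Hfe2, and 1 erythroid marker, *Ahsp*, was not matched. The alternatives were other scalings, filters and DESeq2, marker and Y-chromosome covariates, a block on replicate number and omission of each library. Library totals began at 11153820 counts, and counting error is largest for *Gdf5* (0 to 26 counts a library) and *Grem1* (from 12 counts); the biological coefficient of variation was 37.3%. All 190 pairs of libraries differed by more than sampling noise. No batch is named in the labels.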

Additional observations from a re-analysis of the deposited data

Results flagged for a closer look

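In the control group, the mast cell list score of replicate 8 was -1.52, apart from the next lowest at -0.30 and the highest at 0.72. The gap to its neighbour was 0.542 of the group's range, above Dixon's critical value of 0.526 for 8 samples. It was the only one of 34 groups of 4 to 10 samples so set apart, and chance alone sets apart about 1 in 20. The score is the mean of the 6 mast cell markers tested, and the 8 listed summed to 2.22 CPM in the lowest control. At such low levels counting error and the prior count weigh on the score. Control 8 also had the lowest chondrocyte score and the lowest *Id3*, *Bmp2*, *Bmp4* and *Loxl2* among the controls. Its *Bmpr1a* level and muscle score were the highest of that group.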

How the results depend on the processing

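Fold changes of the members, the other pathway genes called and *Loxl2* were recomputed, 757 in all. Of these, 622 kept their direction and their side of the threshold. Another 125 lost their call with the same direction (24 of them of *Bmpr1a*, 21 of *Dlx5*, 21 of *Eng* and 19 of *Dand5*). The rest were 1 that gained a call (*Loxl2* without knockout 12) and 9 that changed sign. With the osteoclast score as a covariate the log2 fold change was -0.29 for *Bmp2*, -0.11 for *Bmp4*, -0.15 for *Smad6* and -0.10 for *Dlx5*, and with the osteoblast and osteocyte score it was -0.075 for *Bmp2*. With library totals alone as scaling it was 0.040 for *Bmpr2* and 0.00 for *Grem1* (0.0028), the median of all genes moved from -0.02 to 0.12 and the calls split into 2192 higher and 855 lower, against 1918 and 1755. *Bmpr1a* was then not called (-0.17, adjusted p = 0.371), while *Id3* and *Nog* were. *Grem1* ranged from -0.27 to 0.11 on leaving out 1 library, at 0.05 without control 3 and 0.11 without control 7. The cause was not tested.

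All-gene calls numbered 1130 with the muscle score, 646 with the osteoblast and osteocyte score, 0 with the osteoclast score and 2336 without the 3 libraries low in chondrocyte markers. Member calls numbered 1, 0, 0 and 2 in that order, and those of the other pathway genes 2, 2, 0 and 7. On leaving out 1 library, all-gene calls ranged from 2551 (without control 8) to 4181 (without knockout 5), member calls from 2 to 3 and pathway calls from 6 (without control 8) to 15 (without knockout 5), with 7 without control 6. The *Loxl2* log2 difference ranged from 0.51 to 0.93, with an exact permutation p of 0.0827 without control 8 and 0.0650 without control 6.

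Replicate numbers do not pair the samples: over 8 pairs the correlations of deviations ran from -0.36 to 0.17, with 2 above 0.1, and no library matched its own number best. With the replicate block, 1786 genes, 1 member (*Id3*) and 3 other pathway genes were called over 16 libraries. With the summed level of Y-chromosome genes as a covariate, 3833 genes were called, among them the 3 members reported. Centred within each group, *Id3* had r of -0.47 and rho of -0.54 with that level.

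Low counts limit what depth can show for *Gdf5* and, with as few as 12 counts in a library, for *Grem1*. The mitochondrial share of counts was 17.8% in controls and 13.6% in knockouts (exact permutation p = 0.0053). With the mitochondrial genes left out of the scaling, 3665 genes were called, and the 3 members and 11 other pathway genes called were those reported.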
